A study of Mus musculus with 40 samples.

Results

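The collagen IV chains *Col4a1* and *Col4a2* were read with 8 further genes of basement membranes and collagen processing, *Lama1*, *Lamb1*, *Lamc1*, *Nid1*, *Hspg2*, *Sparc*, *P4ha2* and *Serpinh1*, in mouse embryonic stem cells (mESCs) that lacked Cyclin C or CDK8. These 10 genes, of 55536 in the count tables, were chosen by name for their place in this matrix, with knockout against WT results from the same libraries already known. Their differences between knockout and WT cells are therefore a description, and calls of the fit for this contrast are printed beside those of all genes and support nothing. The difference between the knockouts comes from the same knockout libraries and is not independent of the choice either. The responses to the inhibitor were tested. All 10 genes passed the filter on low counts in every fit.

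There were 3 genotypes: *Ccnc* KO cells, as clones D1, G2 and H5, *Cdk8* KO cells, as clones B9, C8 and H4, and WT mESCs as 2 biological replicates. Cyclin C and CDK8 are the cyclin and the kinase of a module that binds the Mediator complex of RNA polymerase II. Each clone or replicate was kept for 4 h in DMSO, the solvent control, or with AZD6738 at 900 nM, which inhibits the kinase ATR (ATRi). All cells were grown on gelatin with serum and LIF. A knockout clone is a line of its own, so that 3 clones stand for each gene. One sequencing multiplex held the WT and *Ccnc* KO libraries, and a second multiplex held the *Cdk8* KO libraries beside the WT libraries, which were thus read in both. Polyadenylated RNA was sequenced with the strand kept, so that reads of *Col4a1* and *Col4a2* can be told apart where the first exons of these genes overlap on opposite strands.

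A basement membrane is a thin sheet of extracellular matrix on which epithelial cells rest. Laminins, trimers of an α, a β and a γ chain, form one network on the cell surface, and collagen IV, a triple helix built mostly from α1 and α2 chains in early embryos, forms another. Nidogen and perlecan link the networks. Before secretion, prolyl 4-hydroxylases modify the collagen chains in the endoplasmic reticulum and the chaperone HSP47 holds the folded helix. In the early mouse embryo, primitive endoderm and its parietal derivative are known for high production of collagen IV, laminin and SPARC, while undifferentiated mESCs also make laminin.

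The 20 libraries held 30899823 to 67274049 counts each, and the 10 genes had 231 to 33309 counts per library. Levels are given as CPM, each count scaled to a fixed library total, after TMM scaling, which sets the library totals on a common footing within a multiplex. *Ccnc* RNA, the check of its knockout, was at 39.6 to 49.2 CPM in the WT libraries and 4.24 to 7.40 in the *Ccnc* KO libraries. *Cdk8* RNA was at 52.3 to 64.6 CPM in the *Cdk8* KO libraries and 57.7 to 78.6 in the WT libraries. The overlap came from WT replicate 2 under ATRi, at 59.0 and 57.7 CPM, and the other WT libraries had 68.2 CPM or more. Since most of the RNA remained in the *Cdk8* KO libraries, its level is a weak check of this genotype. The study tested its knockout clones by western blot and genotyping. The 10 pluripotency markers were detected in all libraries. In the *Ccnc* multiplex they summed to 5040 to 5370 CPM in WT and 4450 to 5030 in *Ccnc* KO. In the *Cdk8* multiplex they summed to 4930 to 5280 CPM in WT and 3710 to 4770 in *Cdk8* KO. Both knockouts thus lay below WT of the same multiplex. Of these markers 4 were called lower in *Ccnc* KO (median log2 fold change -0.19) and 2 in *Cdk8* KO (median -0.28), or 4 and 0 with the clone as a random effect, and 0 higher in either. Of all genes 5.28% and 2.03% were called lower, or 4.61% and 0.668% with the random effect. The core factor gene *Pou5f1* was at 1130 CPM or more. While *Klf4* and *Esrrb*, genes of the naive state, and *Sox2* lay below the WT range in both knockouts, other markers did not. *Nanog*, *Zfp42* and *Tfcp2l1* overlapped WT in both knockouts, and *Dppa5a* reached above it. The *Dppa5a* level was 438 to 615 CPM in *Ccnc* KO against 277 to 471 in WT, and 389 to 498 in *Cdk8* KO against 260 to 462. Clone H4 of the *Cdk8* KO stood apart: its trophectoderm markers summed to 301 and 317 CPM, against 56.6 to 95.8 in clones B9 and C8. WT replicate 2 under ATRi was left out of the fits, as the study did, but its values are still given.

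The 2 collagen IV genes lie head to head on chromosome 8 (GRCm38). *Col4a1* occupies chr8:11198423-11312826 on the minus strand with 54 exon blocks and *Col4a2* chr8:11312805-11449287 on the plus strand with 48. Their RefSeq promoter windows, 250 bases before and 50 after the start, share 78 bases (chr8:11312777-11312854). These windows are shown because the genes share them and moved together, with that of *P4ha2*, whose enzyme hydroxylates collagen and whose clone pattern was nearest to theirs among the other members. The *P4ha2* window follows the RefSeq start at chr11:54100674-54100973 and lies inside the longer gene model of the annotation used for counting. Capitals mark the GC box GGGCGG, the promoter element CCAAT and the CT-rich box CCCTCCCC on either strand, where a match on the other strand reads as its reverse complement. None of the marked matches overlaps another.
Col4a1: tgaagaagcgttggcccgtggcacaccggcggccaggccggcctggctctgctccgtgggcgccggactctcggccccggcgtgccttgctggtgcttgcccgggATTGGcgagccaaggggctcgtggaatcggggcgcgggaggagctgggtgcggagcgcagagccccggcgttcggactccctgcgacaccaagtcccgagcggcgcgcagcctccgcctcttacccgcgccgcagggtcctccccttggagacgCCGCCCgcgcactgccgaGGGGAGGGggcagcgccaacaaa
Col4a2: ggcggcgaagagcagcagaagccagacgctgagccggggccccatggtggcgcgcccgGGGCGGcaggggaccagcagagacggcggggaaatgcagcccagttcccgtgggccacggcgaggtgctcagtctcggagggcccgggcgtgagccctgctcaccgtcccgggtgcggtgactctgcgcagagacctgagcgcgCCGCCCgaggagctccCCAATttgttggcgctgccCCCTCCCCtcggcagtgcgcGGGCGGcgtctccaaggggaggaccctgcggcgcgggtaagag
P4ha2: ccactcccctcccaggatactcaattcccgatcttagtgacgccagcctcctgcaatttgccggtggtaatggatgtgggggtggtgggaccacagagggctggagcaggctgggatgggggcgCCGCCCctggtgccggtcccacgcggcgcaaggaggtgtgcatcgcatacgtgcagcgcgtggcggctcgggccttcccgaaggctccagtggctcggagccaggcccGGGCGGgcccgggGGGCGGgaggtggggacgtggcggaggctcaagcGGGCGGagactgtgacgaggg

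All 3 windows were rich in G and C, at 74.0%, 73.7% and 70.3%, against a median of 53.0% over 32544 distinct RefSeq windows. A GC box was present in 7 of the 8 member windows found in the RefSeq table (GRCm38.p6) and in 35.9% of all windows, and CCAAT in 4 of 8 against 37.4%. The CT-rich box lay in 3 of 8, those of *Col4a1*, *Col4a2* and *Nid1*, against 10.8%. In the collagen IV pair the shared 78 bases hold the same CT-rich box and the same GC box. The GATA motif AGATAA, the SOX motif ACAATG and the TATA box TATAAA had no match in the 8 windows and were in 11.2%, 12.4% and 13.6% of all windows. *Lama1* and *Lamc1* have no entry in that table.

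*Col4a1*, which encodes the α1 chain, had the largest fold change of the 10 genes after *Col4a2* in both knockouts. In the *Ccnc* multiplex its level under DMSO was 39.2 and 48.1 CPM in WT replicates 1 and 2, and 72.5, 130 and 131 CPM in clones D1, G2 and H5. Under ATRi it was 43.8 and 45.1 CPM in WT cells and 103, 142 and 123 CPM in the same clones. Every *Ccnc* KO library lay above every WT library, with clone D1 the lowest. In the *Cdk8* multiplex WT cells had 37.9 and 43.2 CPM under DMSO and 41.3 and 44.2 under ATRi. Clones B9, H4 and C8 had 184, 194 and 223 CPM under DMSO and 178, 200 and 254 CPM under ATRi. The groups did not overlap, and the lowest *Cdk8* KO library was above the highest *Ccnc* KO library, although each multiplex was scaled on its own. The fitted log2 fold change beside treatment was 1.41 ± 0.16 (SE) in *Ccnc* KO and 2.32 ± 0.12 in *Cdk8* KO.

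*Col4a2*, the gene of the α2 chain, followed the same order from a lower level. WT libraries had 12.1 to 15.3 CPM over both multiplexes and treatments. Under DMSO it was at 35.4, 57.7 and 50.6 CPM in *Ccnc* KO clones D1, G2 and H5, while *Cdk8* KO clones B9, H4 and C8 had 74.1, 84.5 and 94.8 CPM. Under ATRi the same clones had 41.7, 57.9 and 50.2 CPM and 70.9, 90.3 and 113 CPM. Neither knockout overlapped WT, and again D1 was the lowest clone. The log2 fold changes were 1.88 ± 0.15 and 2.70 ± 0.16, the largest of the 10 genes in both knockouts. The other collagen IV chains, named after their values were seen, were near absent: *Col4a3*, *Col4a4* and *Col4a5* had at most 24 counts in any library, and *Col4a6* had 0.

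*P4ha2*, a catalytic subunit of prolyl 4-hydroxylase, was the least abundant of the 10 genes and was higher in every clone. WT replicates 1 and 2 had 8.79 and 10.2 CPM under DMSO and 6.76 and 6.97 under ATRi in the *Ccnc* multiplex. The *Ccnc* KO clones D1, G2 and H5 had 17.9, 26.4 and 18.3 CPM under DMSO and 18.4, 23.9 and 17.9 under ATRi. The *Cdk8* KO clones B9, H4 and C8 had 24.8, 26.0 and 31.2 CPM under DMSO and 23.4, 25.3 and 31.1 under ATRi, against 6.28 to 9.76 in WT libraries. No knockout library reached down to the WT range. The log2 fold changes were 1.30 ± 0.15 and 1.79 ± 0.15.

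*Serpinh1*, which encodes the collagen chaperone HSP47, was further from WT in *Cdk8* KO than in *Ccnc* KO cells. The *Ccnc* KO clones D1, G2 and H5 had 31.7, 46.8 and 36.8 CPM under DMSO, where WT cells had 28.8 and 31.9, so that clone D1 lay within the WT range. The *Cdk8* KO clones B9, H4 and C8 had 46.7, 84.7 and 81.5 CPM under DMSO and 53.4, 94.7 and 82.8 under ATRi, all above the 27.9 to 31.9 CPM of WT libraries. Among the *Cdk8* KO clones B9 was well below the others. The log2 fold changes were 0.41 ± 0.11 and 1.30 ± 0.22.

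*Sparc*, a secreted glycoprotein that binds collagen, was raised to about the same level in both knockouts. WT libraries had 228 to 304 CPM, with the highest value in WT replicate 2 under ATRi. Under DMSO the level was 437, 503 and 426 CPM in *Ccnc* KO clones D1, G2 and H5, while the clones lacking *Cdk8* (B9, H4, C8) had 460, 394 and 459 CPM. No library of either knockout overlapped WT. The log2 fold changes were 0.90 ± 0.07 and 0.89 ± 0.07, and the clones spread less than for the collagen chains.

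The 3 laminin chains of the embryonic trimer did not move together. *Lamb1* (β1 chain) had 70.6 to 81.3 CPM in WT cells under DMSO, 84.2, 98.5 and 108 CPM in *Ccnc* KO clones (D1, G2, H5), and 115, 154 and 148 CPM in the *Cdk8* KO clones in the order B9, H4, C8. WT replicate 2 under ATRi was lower, at 57.5 and 60.5 CPM in the 2 multiplexes, and no knockout library overlapped WT. *Lama1* (α1 chain) had 72.8 to 79.6 CPM in WT cells under DMSO and 64.5, 89.4 and 90.2 CPM in the *Ccnc* KO clones. Clone D1 lay below WT and the others above it. The *Cdk8* KO clones had 138, 105 and 152 CPM of *Lama1*, all above WT. *Lamc1* (γ1 chain), the most abundant laminin gene of the 3 per length, had 317 and 360 CPM in WT cells of the *Ccnc* multiplex, 255, 263 and 309 CPM in the *Ccnc* KO clones, and 343, 307 and 332 CPM in the *Cdk8* KO clones, where WT had 323 and 355. Its groups overlapped in the *Cdk8* multiplex, and over both treatments in the *Ccnc* multiplex also. For *Ccnc* KO and *Cdk8* KO in turn, the log2 fold changes were 0.38 ± 0.07 and 0.91 ± 0.13 for *Lamb1*, 0.17 ± 0.11 and 0.79 ± 0.14 for *Lama1*, and -0.23 ± 0.07 and -0.03 ± 0.06 for *Lamc1*.

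The genes of the linkers were not raised as the collagen chains were. *Nid1* (nidogen 1) had 60.2 and 60.4 CPM in WT cells under DMSO, 50.2, 52.7 and 51.7 CPM in the *Ccnc* KO clones, and 69.6, 46.8 and 52.8 CPM in *Cdk8* KO clones B9, H4 and C8, against 57.6 and 60.8 in WT cells of that multiplex. The *Ccnc* KO clones were below WT under DMSO and the *Cdk8* KO clones lay on both sides of it. *Hspg2* (perlecan) differed between the WT replicates themselves, at 146 and 230 CPM under DMSO. Its *Ccnc* KO clones had 106, 109 and 149 CPM and its *Cdk8* KO clones B9, H4 and C8 had 173, 270 and 165 CPM, so that H4 was the highest and the others lay between the WT replicates. The log2 fold changes were -0.24 ± 0.06 and -0.11 ± 0.13 for *Nid1*, and -0.40 ± 0.15 and 0.24 ± 0.22 for *Hspg2*, the latter -0.02 without clone H4. The *Ccnc* KO value of *Hspg2* was -0.92 without WT replicate 1, which edgeR called (adjusted p = 0.0124), and -0.14 without WT replicate 2.

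**Figure D1:**
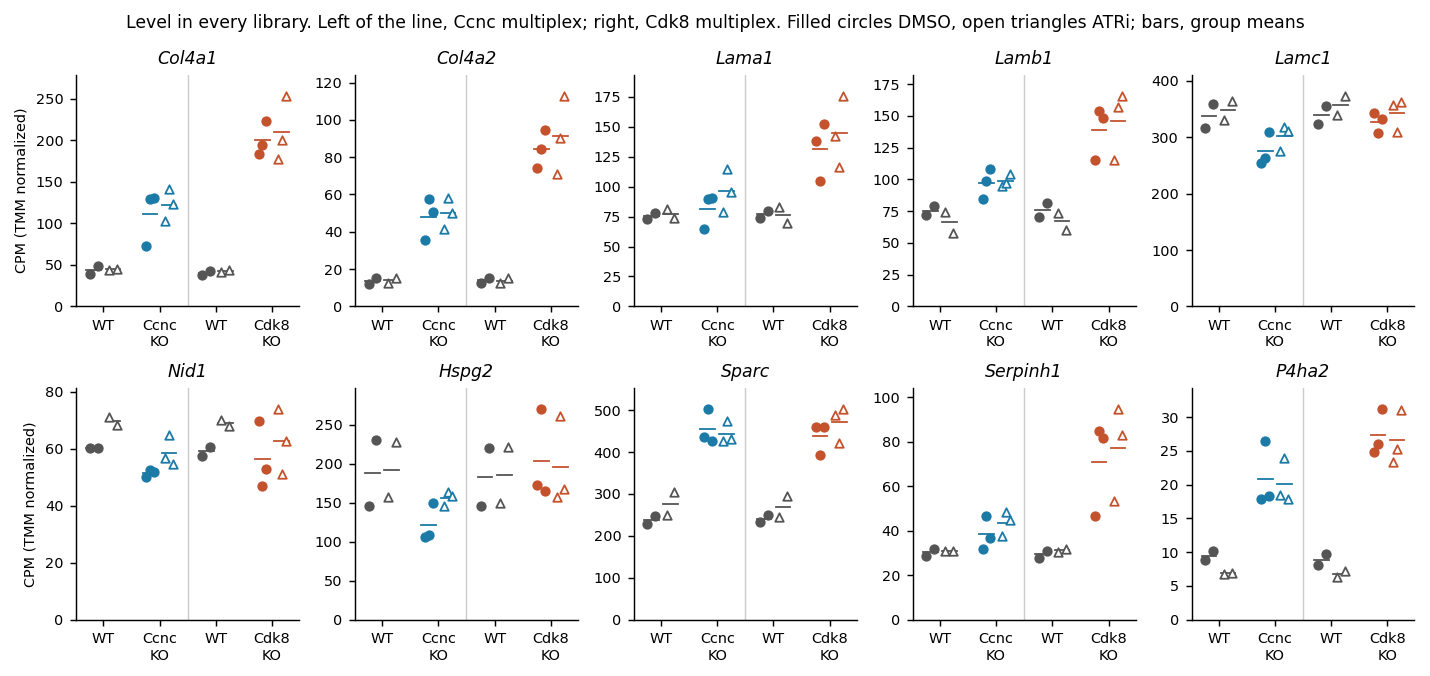
TMM-normalized CPM of each gene in every library, on a linear axis from 0 in each panel, for WT and knockout cells of both multiplexes under DMSO (filled circles) and ATRi (open triangles); short bars are group means. *Col4a1*, *Col4a2*, *P4ha2*, *Sparc* and *Lamb1* show no overlap between knockout and WT libraries in either multiplex, while *Lamc1*, *Nid1* and *Hspg2* overlap.

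Counted over the 10 genes, 5 had all *Ccnc* KO libraries above all WT libraries (*Col4a1*, *Col4a2*, *Lamb1*, *Sparc* and *P4ha2*), beside 5.11% of all genes tested, and 7 had all *Cdk8* KO libraries above WT, these 5 with *Lama1* and *Serpinh1*, beside 4.79%. The members called higher with edgeR's quasi-likelihood test at an adjusted p-value under 0.05 were 6 in *Ccnc* KO, where 7.01% of all genes were called higher, and 7 in *Cdk8* KO, where 2.28% were. *Nid1* was called lower in *Ccnc* KO (5.28% of all genes), and no member in *Cdk8* KO (2.03%). Calls that also exceeded a 2-fold change were 3 in *Ccnc* KO (1.62% of all genes) and 4 in *Cdk8* KO (0.908%). Because knowledge of this contrast entered the choice of the genes, these counts carry no weight of their own. The fit takes the DMSO and ATRi libraries of a clone as separate samples, so that its errors and calls rest on more libraries than there are clones. With the clone as a random effect in limma, the members called were 6 higher and 1 lower in *Ccnc* KO, as before, where 5.53% and 4.61% of all genes were called higher and lower, and 7 higher in *Cdk8* KO, where these shares fell to 0.598% and 0.668%. The median log2 fold change of the members was 0.39 in *Ccnc* KO and 0.90 in *Cdk8* KO, and that of all genes tested 0.003 and 0.009. In bulk RNA, more cells of a type that makes this matrix and more RNA per cell cannot be told apart.

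Levels were compared between genes as CPM per kilobase of merged exon, which depends on the gene models. In WT cells under DMSO of the *Ccnc* multiplex *Sparc* was highest with a mean of 62.8, followed by *Lamc1* with 40.9, *Hspg2* with 13.1 and *Serpinh1* with 12.4. *Nid1* at 8.68, *Lama1* at 7.77 and *Lamb1* at 7.61 came next, then *Col4a1* at 5.85, *Col4a2* at 2.06 and *P4ha2* at 1.53. The WT replicates differed by more than the step between neighbours for *Hspg2* and *Serpinh1* and for *Lama1* and *Lamb1*, so that these orders are not resolved. In *Cdk8* KO cells *Col4a1* reached 26.9, behind only *Sparc* (116), *Lamc1* (39.6) and *Serpinh1* (29.1). In *Ccnc* KO cells it was at 14.9, behind the same 3 genes. Its order against *Serpinh1* is not resolved, since *Col4a1* was the higher in clone B9 (24.6 against 19.1) and in clone H5 (17.5 against 15.1).

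The clones of one knockout were not alike. Taking each clone under DMSO over the WT mean of its multiplex on the log2 CPM scale, clone D1 was the lowest *Ccnc* KO clone for 9 of 10 genes, with a median of 0.12 against 0.51 for G2 and 0.40 for H5. For *Col4a1* the *Ccnc* KO clones were at 0.74, 1.58 and 1.59 and for *Col4a2* at 1.38, 2.08 and 1.90. The *Cdk8* KO clones had closer medians, of 0.76 for B9, 0.87 for H4 and 0.98 for C8. Within them *Serpinh1* spread from 0.67 in B9 to 1.53 in H4, *Lama1* from 0.45 in H4 to 0.99 in C8, and *Hspg2* from -0.11 in C8 to 0.59 in H4. Clone D1 was also the lowest under ATRi, for 8 of 10 genes.

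**Figure D2:**
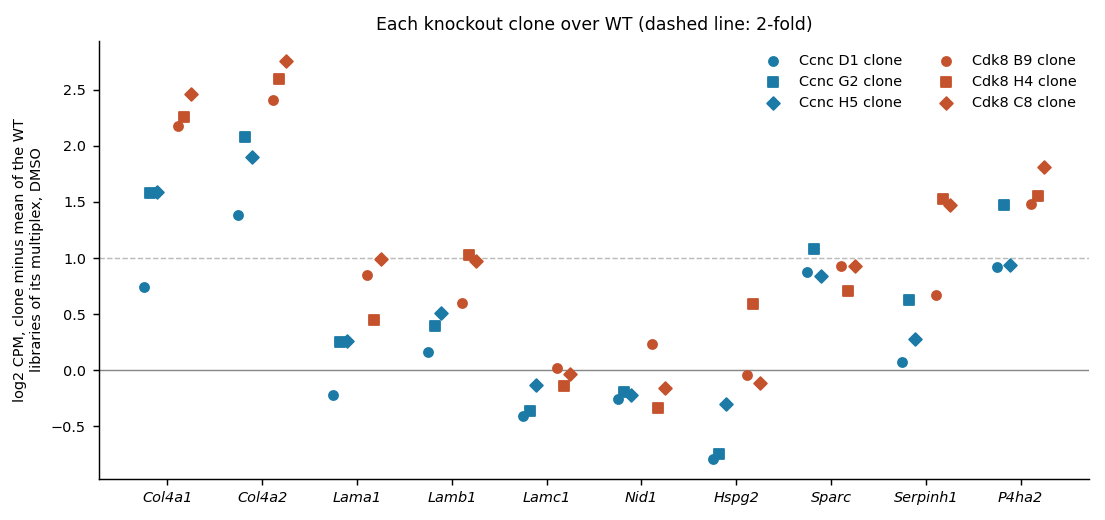
Difference in log2 CPM between each knockout clone and the mean of the WT libraries of its multiplex under DMSO, one column of points per gene, *Ccnc* KO clones on the left and *Cdk8* KO clones on the right of each column. The *Col4a2* points run from 1.38 in clone D1 to 2.76 in clone C8, and those of *Lamc1* lie between -0.41 and 0.02.

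Ratios within a library showed the uneven change of chains that can assemble together. Per kilobase, *Col4a1* exceeded *Col4a2* by a ratio of 2.61 to 3.03 in the WT libraries of the *Ccnc* multiplex and 2.50 to 2.92 in those of the *Cdk8* multiplex. The ratio was 1.82 to 2.29 in *Ccnc* KO libraries and 1.96 to 2.23 in *Cdk8* KO libraries, below the WT range in each. *Lamb1* over *Lamc1* was 0.131 to 0.189 in WT libraries of the *Ccnc* multiplex, 0.254 to 0.312 in *Ccnc* KO and 0.269 to 0.424 in *Cdk8* KO. *Lama1* over *Lamc1* was 0.172 to 0.209 in the same WT libraries, 0.216 to 0.308 in *Ccnc* KO and 0.293 to 0.414 in *Cdk8* KO. No knockout library overlapped WT for these 3 ratios, and the *Lama1* ratio of clone D1 under DMSO was the nearest to it. *Lama1* over *Lamb1*, in contrast, overlapped WT in both knockouts. Other laminin chains were present too, with *Lama5* at 131 to 322 CPM and *Lamb2* at 26.6 to 44.6 CPM over the libraries. The laminin ratios are therefore not those of a single trimer. These ratios come from the same contrast as the choice of the genes and are given without a test.

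**Figure D3:**
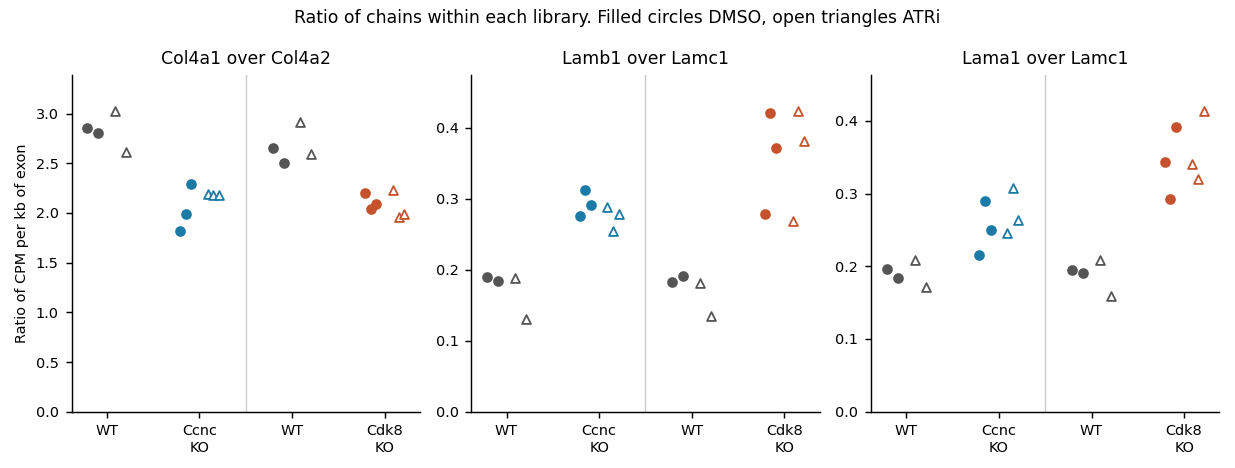
Ratio of CPM per kilobase of exon of *Col4a1* over *Col4a2*, *Lamb1* over *Lamc1* and *Lama1* over *Lamc1* in every library, on linear axes from 0, with filled circles for DMSO and open triangles for ATRi. The collagen ratio is at least 2.50 in WT libraries and at most 2.29 in knockout libraries, and both laminin ratios lie higher in knockout than in WT libraries.

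The knockouts were then compared with each other under DMSO. The values are those of the knockout libraries whose difference from WT was known at the choice, so that the intervals give no independent support. They describe the uncertainty of the mean difference, not the range of the clones. By adjusted p-value 0 of the 10 genes differed between *Cdk8* KO and *Ccnc* KO in edgeR, where 0.0181% of all genes were called. At an unadjusted p under 0.05 there were 7 members, all higher in *Cdk8* KO, beside 3.89% of all genes. Of the 10 genes 9 were higher in *Cdk8* KO, with a median log2 difference of 0.59 against 0.006 over all 16575 genes tested. The 3 *Cdk8* KO clones lay above the 3 *Ccnc* KO clones without overlap for 5 genes, *Col4a1*, *Col4a2*, *Lama1*, *Lamb1* and *Hspg2*, beside 8.48% of all genes. This count compares levels that were scaled within each multiplex. For *Lamb1* the gap was small, from 108 CPM in clone H5 to 115 in clone B9. The same WT libraries differed by -0.02 to 0.07 on the log2 scale between the multiplexes for this gene.

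The log2 difference of *Col4a1* was 0.84 (95% interval 0.38 to 1.29, edgeR adjusted p = 0.649). *Col4a2* was at 0.80 (0.42 to 1.19) with the same adjusted p. *Serpinh1* had the largest difference, 0.87 (0.35 to 1.38, edgeR adjusted p = 0.649), although *Ccnc* KO clone G2 at 46.8 CPM matched *Cdk8* KO clone B9 at 46.7. Of the laminin chains *Lama1* differed by 0.68 (0.31 to 1.05), *Lamb1* by 0.51 (0.22 to 0.80) and *Lamc1* by 0.23 (0.04 to 0.43). *Hspg2* differed by 0.73 (0.28 to 1.18), and by 0.47 without clone H4. Intervals that held 0 were those of *P4ha2* (0.37, -0.01 to 0.75), *Nid1* (0.12, -0.19 to 0.42) and *Sparc* (-0.07, -0.28 to 0.14). An interval that holds 0 does not show that the levels are equal.

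The call depended on the test. DESeq2 called 5 members higher in *Cdk8* KO (0.0701% of all genes), *Col4a1*, *Col4a2*, *Lama1*, *Hspg2* and *Serpinh1*, and edgeR without the filter on low counts called these with *Lamb1* (0.0491%). The knockouts were sequenced in different multiplexes. A fit over all libraries with the multiplex as a term, which the WT libraries read in both allow, gave 0.91 for *Col4a1*, 0.83 for *Col4a2* and 0.89 for *Serpinh1*. All 10 members were then higher in *Cdk8* KO, with *Sparc* at 0.01, 6 had an unadjusted p under 0.05 (2.85% of all genes), and edgeR called 0. This fit counts each WT library as a separate sample in each multiplex. The same WT libraries read in both multiplexes differed by -0.16 to 0.07 on the log2 scale over the 10 genes, with the Cdk8 multiplex minus the Ccnc multiplex. In the ATRi libraries the differences were 0.78 for *Col4a1*, 0.87 for *Col4a2* and 0.82 for *Serpinh1*.

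**Figure D4:**
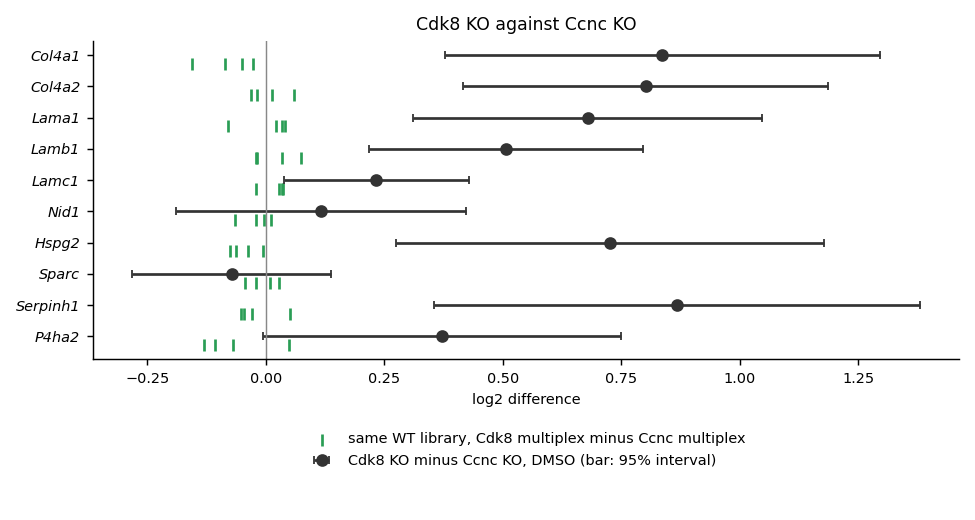
Log2 difference between *Cdk8* KO and *Ccnc* KO under DMSO for each gene (point, 3 clones against 3) with its 95% interval from edgeR (bar), and the log2 difference of each of the 4 WT libraries between the multiplexes (ticks). The intervals of *Col4a1*, *Col4a2*, *Lama1*, *Lamb1*, *Lamc1*, *Hspg2* and *Serpinh1* lie above 0, and the WT ticks between -0.16 and 0.07.

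ATR inhibition for 4 h changed these genes little. The genes were not chosen on this contrast. The fit over both genotypes called 0 of 10 members in either multiplex, where edgeR called 1.11% of all genes in the Ccnc multiplex and just 0.0855% in the other. At an unadjusted p under 0.05 there were 1 member (*Nid1*), which DESeq2 called, in the former, where 16.2% of all genes were, and 0 in the latter, where 11.5% were and DESeq2 called 0 members. Log2 changes lay between -0.18 and 0.20 (median 0.09) in the former and between -0.16 and 0.18 (median 0.05) in the latter, with medians of -0.009 and -0.007 over all genes. *Col4a1* changed by 0.10 (95% interval -0.21 to 0.41) and 0.06 (-0.17 to 0.29), and *Col4a2* by 0.02 (-0.26 to 0.29) and 0.04 (-0.26 to 0.34). These intervals leave out a 2-fold change in either direction.

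*Nid1* was the member nearest to a call, with a log2 change of 0.20 (0.08 to 0.33, edgeR adjusted p = 0.108) in the Ccnc multiplex and 0.18 (-0.10 to 0.46, edgeR adjusted p = 0.651) in the Cdk8 multiplex. Its level was higher under ATRi in all 6 clones, by 0.08 to 0.30, and in both WT replicates. *Lama1*, *Lamc1* and *Serpinh1* were also higher in all 6 clones, by 0.04 to 0.37, 0.01 to 0.28 and 0.02 to 0.28. The share of all genes that were higher in all 6 clones was not counted. *P4ha2* went the other way in WT cells, by -0.38 in replicate 1 and -0.55 in replicate 2 of the Ccnc multiplex, while the clones changed by -0.15 to 0.03. *Lamb1* differed by -0.47 in WT replicate 2 and by 0.06 in replicate 1, so that the WT response of this gene rests on the replicate.

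The DMSO and ATRi libraries of a clone come from one cell line, and the fit was repeated with the clone as a block. In this paired fit edgeR called 3 members higher under ATRi in the Cdk8 multiplex, where 4.87% of all genes were called higher: *Nid1* by 0.19 ± 0.04 (SE, adjusted p = 0.0097), *Lama1* by 0.14 ± 0.04 (adjusted p = 0.0185) and *Sparc* by 0.10 ± 0.03 (adjusted p = 0.0348). In the Ccnc multiplex the paired fit called 0 members, where 0.964% of all genes were called higher, and 5 had an unadjusted p under 0.05, beside 18.6% of all genes, against 5 and 26.2% in the Cdk8 multiplex.

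No member's response to ATRi differed between knockout and WT cells by adjusted p, and the edgeR interaction called 0% of all genes in both multiplexes. At an unadjusted p under 0.05 there was 1 member in the Ccnc multiplex (2.13% of all genes) and 0 in the Cdk8 multiplex (1.36%). That member was *Hspg2*, with an interaction of 0.60 (95% interval 0.02 to 1.18, edgeR adjusted p = 1). It went from 106, 109 and 149 CPM to 146, 164 and 158 CPM in clones D1, G2 and H5, while WT replicate 1 went from 146 to 157 CPM. The value was 0.26 with the clone as a block, 0.25 without WT replicate 2 and 0.33 with WT replicate 2 under ATRi included, each with an unadjusted p above 0.05. For *P4ha2* the interactions were 0.42 (-0.21 to 1.04) and 0.46 (-0.13 to 1.05). With the clone as a block, edgeR gave 0 members an unadjusted p under 0.05 in the Ccnc multiplex, beside 414 of 18577 genes. In the Cdk8 multiplex 1 member had such a p, beside 954 of 18721 genes. By adjusted p that blocked fit called 4 genes in the Cdk8 multiplex, and 0 members. Only 1 WT library under ATRi enters these fits.

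**Figure D5:**
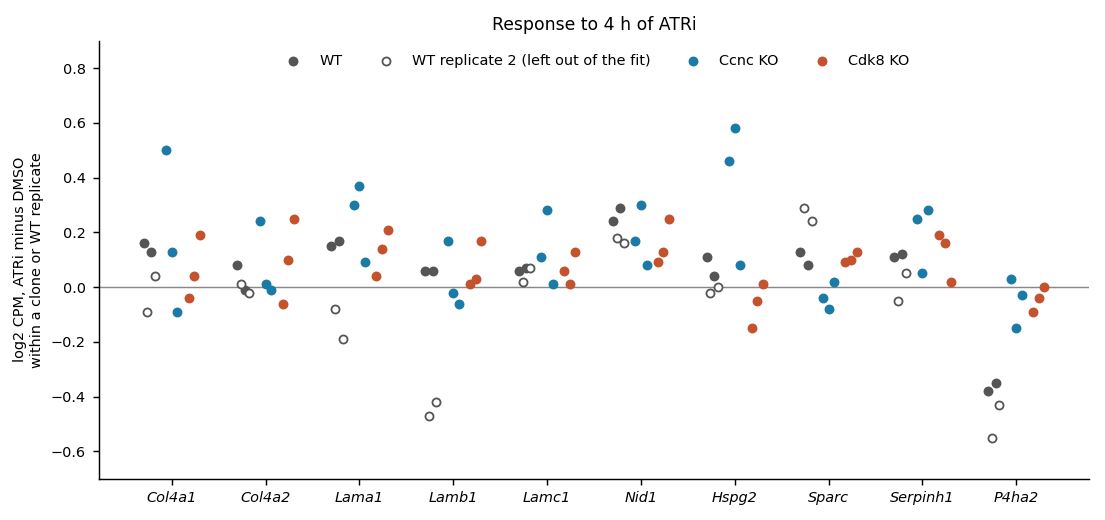
Difference in log2 CPM between the ATRi and the DMSO library of each clone or WT replicate, with WT cells shown for both multiplexes (the same libraries sequenced in each) and open circles for WT replicate 2, which the fit left out. All *Nid1* points are above 0, the WT points of *P4ha2* lie between -0.55 and -0.35, and the *Hspg2* points of clones D1 and G2 are at 0.46 and 0.58.

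The rest of the basement membrane was read from lists of its components and processing genes, 89 genes beyond the 10. In *Ccnc* KO 77 of them were tested, of which edgeR called 14 higher and 9 lower (7.01% and 5.28% of all genes), and in *Cdk8* KO 81 were tested, of which 7 were called higher and 0 lower (2.28% and 2.03%). With the clone as a random effect the 14 and 9 in *Ccnc* KO stayed the same in number, and in *Cdk8* KO only 1 of the 7 calls, *P4ha1*, was left. The medians were 0.10 and 0.29, against 0.003 and 0.009 over all genes. Of 17 further collagen folding and modification genes, 4 were called higher and 1 lower in *Ccnc* KO and 3 higher in *Cdk8* KO. Among them *P3h2*, a prolyl 3-hydroxylase, had log2 fold changes of 0.97 ± 0.25 and 1.49 ± 0.26, at no more than 1.88 CPM under DMSO. For *P4ha1*, which encodes another catalytic subunit of prolyl 4-hydroxylase, they were 0.35 ± 0.08 and 0.60 ± 0.10. *Ppib*, a prolyl isomerase that acts on collagen chains, changed by 0.29 ± 0.06 and 0.22 ± 0.05.

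In the list of secreted matrix proteins *Tinagl1*, a laminin-binding glycoprotein, was called higher in both knockouts, with 1.41 ± 0.21 and 1.83 ± 0.40. Among cross-linking enzymes it was *Loxl2*, a lysyl oxidase, with 1.20 ± 0.32 and 1.93 ± 0.41, at no more than 2.32 CPM under DMSO. Of the fibrillar collagens, which basement membranes do not hold, *Col5a3* was called in both, with 0.76 ± 0.21 and 1.00 ± 0.18. Its level was also low, at no more than 2.16 CPM under DMSO. With the clone as a random effect the *Cdk8* KO calls of *Tinagl1*, *Loxl2* and *Col5a3* were lost. No gene of the lists of further laminin chains, linkers and proteoglycans, receptors, or proteases and inhibitors was called in both knockouts. Of the 4 linkers and proteoglycans beyond *Nid1* and *Hspg2*, 2 were called lower in *Ccnc* KO and 0 in *Cdk8* KO. None of the 89 genes was called by edgeR for the ATRi effect, the interaction or the difference between the knockouts. At an unadjusted p under 0.05 there were 20 of 77 and 6 of 81 for the ATRi effect in the Ccnc and Cdk8 multiplexes (16.2% and 11.5% of all genes), 3 and 0 for the interaction (2.13% and 1.36%), and 8 of 75 between the knockouts (7.57%).

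The genes outside the lists whose pattern was most like that of *Col4a1* were ranked by the root mean square difference of their log2 levels over WT across the 6 clones under DMSO, among 9507 genes at a mean log2 CPM of 3 or more. *Amot*, which encodes angiomotin, was nearest at 0.639, followed by *Rnf128* at 0.668, *Clu* (clusterin) at 0.796, *Calml4* at 0.842 and *Wfdc2* at 0.900. Among the members *Col4a2* was at 0.409 and *P4ha2* at 0.561, nearer than these 5, while *Lamc1*, *Nid1* and *Hspg2* were at 2.03 to 2.07. The D1 clone, low for *Col4a1* at 0.74, was at 1.20 for *Amot* and 1.54 for *Rnf128*.

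Among markers of other cell types, the primitive endoderm sum lay above WT in both knockouts, as the collagen chains did. So did the parietal endoderm sum once *Vim* was left out. The endothelial sum did so in *Ccnc* KO only, and the feeder cell and fibroblast sum in *Cdk8* KO only. Other lists were mixed. Of 13 primitive endoderm markers, 12 were called higher in *Ccnc* KO and 13 in *Cdk8* KO, where 7.01% and 2.28% of all genes were. With the clone as a random effect 12 and 9 were. Their summed level was 62.0 to 90.7 CPM in WT libraries, 128 to 196 in *Ccnc* KO and 198 to 358 in *Cdk8* KO. None of these markers was at 0 in any genotype. Clone C8 was the highest for this sum, with 325 CPM under DMSO, as for both collagen IV chains, while clone D1, at 150, was not the lowest *Ccnc* KO clone. Of 10 parietal endoderm markers, 9 were tested and 5 and 4 called higher (5 and 2 with the random effect), with medians of 1.41 and 1.89. The intermediate filament gene *Vim* made up most of their sum, and without it the other 9 summed to 9.30 to 15.7 CPM in WT, 18.7 to 25.1 in *Ccnc* KO and 19.1 to 90.2 in *Cdk8* KO. The top of this last range rests mostly on the keratin gene *Krt19*. That gene had 4.65 to 66.5 CPM in *Cdk8* KO libraries and 1.89 to 5.28 in WT libraries. The part of these markers in the levels of the 10 genes was not tested. Feeder cell and fibroblast markers summed to 14.6 to 16.8 CPM in WT, 15.6 to 21.3 in *Ccnc* KO and 17.8 to 37.2 in *Cdk8* KO. Their medians were 0.29 and 0.75, with 0 called of the 6 and 8 tested among 11. *Lum* had at most 4 counts and *Dcn* at most 10. In *Cdk8* KO, *Col1a1*, *Col1a2* and *Thy1* reached 16.8, 3.31 and 5.83 CPM, against at most 2.38, 0.276 and 3.01 in WT of that multiplex. The lowest values of these genes lay within the WT range, and *Twist1* did not exceed it. The highest sums of this list, 32.5 and 37.2 CPM, were those of clone H4. Under DMSO that clone was the highest *Cdk8* KO clone for 3 members, *Lamb1*, *Hspg2* and *Serpinh1*. Of 8 trophectoderm markers 5 were called higher in *Ccnc* KO (median 1.17) and 1 of 7 tested in *Cdk8* KO (median 1.83), and these became 4 and 0 with the random effect. Their sums were 52.6 to 85.7 CPM in WT and 67.8 to 102 in *Ccnc* KO. In *Cdk8* KO clone B9 lay within the WT range, at 58.9 CPM under DMSO and 56.6 under ATRi, while clone H4 had 301 and 317. Of 5 endothelial markers 1 and 2 were called higher, or 1 and 0 with the random effect. They summed to 85.6 to 105 CPM in *Ccnc* KO, against 56.9 to 80.9 in WT of that multiplex. In *Cdk8* KO they summed to 74.6 to 97.3 CPM, against 57.6 to 80.7 in WT. Of 5 neuroectoderm markers tested 2 were called lower in *Ccnc* KO and 0 in *Cdk8* KO. The part of these further lists was not tested either.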

How the data were processed

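RNA-seq counts came from 20 libraries, sequenced as 2 multiplexes of 10 libraries on 2 lanes. Per the labels and the study's methods, the authors trimmed reads with Trimmomatic 0.38, aligned them to GRCm38.p6 with HISAT2 2.1.0, counted them per gene by strand with featureCounts 2.0.1, leaving out reads marked as duplicates, and deposited raw counts per lane. The step that marks duplicates is not given in the sources used here. Deposited log2 values after the rlog transformation of DESeq2 were not used.

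Lanes were summed, since lanes of a library differed little more than by sampling (chi-square per degree of freedom 1.30 to 1.43). Genes were tested within each multiplex with edgeR 4.0.16 under R 4.3.3 (quasi-likelihood test, TMM, filterByExpr) for genotype beside treatment, ATRi beside genotype, their interaction, and *Cdk8* KO against *Ccnc* KO under DMSO. Genes were called at an edgeR p of under 0.05 once adjusted by Benjamini-Hochberg over all genes tested. Log2 CPM used a prior count of 2. The ATRi library of WT replicate 2 was not used in the fits, following the study. Alternatives used DESeq2 1.42.0, limma 3.58.1 and other samples or filters. The tests were run on simulated counts with 2-fold changes put in, where every library was drawn independently. This does not check how the fits treat 2 libraries of the same clone.

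The 10 genes and all lists were chosen with earlier results of these data known. Besides the members and the targeted genes, named genes were up to 4 per list called in both knockouts and the 5 genes nearest to *Col4a1*. Other names were chosen after their values were seen. The p-values weigh a difference against the spread between libraries, and the genotype fits take both libraries of a clone as separate samples. All 55536 genes were found in GENCODE M21, and 1 of 163 listed symbols was not matched. The clone pairs the DMSO and ATRi libraries of a cell line. The correlations of their deviations across genes were 0.281, 0.035 and 0.307 for D1, G2 and H5 and 0.843, 0.900 and 0.513 for B9, H4 and C8.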

Additional observations from a re-analysis of the deposited data

How the results depend on the processing

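Of 616 values of single genes under the alternatives, 540 kept their direction and their side of the threshold, 24 lost a call, 26 gained one, and 26, none of them a called value, changed sign; the causes were not tested. Members called against WT were 7 in each knockout, 4 and 3 with the DMSO libraries alone, and 3 to 8 in *Ccnc* KO and 0 to 7 in *Cdk8* KO when 1 clone or replicate was left out, with the lowest counts without WT replicate 1, which leaves 1 WT library in the fit. Members called between the knockouts were 0, but 5 with DESeq2 and 6 with the filter lowered to at least 1 count in any library. For the ATRi effect the 0 members became 1 in the Ccnc multiplex with DESeq2 (*Nid1*) or the lowered filter (*Lama1*), and 3 in the Cdk8 multiplex with the replicate block of the clone. The interaction in the Ccnc multiplex had 1 member, *Hspg2*, with the lowered filter, and its value there was 0.25 to 0.77 when 1 clone or replicate was left out. The paired fits changed no other count of members by more than 1.5 times.

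The values that changed sign were small. With WT replicate 2 under ATRi included, the ATRi effect in the Ccnc multiplex was 0.06 for *Sparc* and -0.06 for *Lamb1*, that of *Lamb1* in the Cdk8 multiplex -0.02, and the *Hspg2* interaction there -0.08. With DESeq2 size factors and with the replicate block the ATRi effect of *Sparc* in the Ccnc multiplex was 0.00, and the *Hspg2* interaction in the Cdk8 multiplex was -0.10 with the block. The *Sparc* difference between the knockouts was 0.08 in the ATRi libraries, 0.01 with all libraries and the multiplex as a term, and 0.01 with the clone as a random effect (replicate block). Leaving out 1 clone or replicate, the ATRi effect in the Ccnc multiplex ranged from -0.03 to 0.07 for *Col4a2*, -0.03 to 0.02 for *Sparc* and -0.03 to 0.04 for *Lamb1*, and in the Cdk8 multiplex from -0.04 to 0.12 for *Col4a2* and -0.01 to 0.08 for *Lamb1*. Against WT in *Cdk8* KO the ranges were -0.13 to 0.03 for *Lamc1*, -0.13 to 0.43 for *Hspg2* and -0.28 to 0.01 for *Nid1*. The *Hspg2* interaction in the Cdk8 multiplex ranged from -0.10 to 0.28, and the differences between the knockouts from -0.12 to 0.01 for *Sparc* and -0.06 to 0.24 for *Nid1*. The interaction without WT replicate 1 could not be fitted, since no WT library under ATRi is then left.

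Counts over all genes moved more than those of the members. Genes called against WT were 2284 in *Ccnc* KO and 635 with the DMSO libraries alone. In *Cdk8* KO they were 806, but 237 with the clone as a random effect (replicate block), 1735 with DESeq2 and 5 with the DMSO libraries alone. Leaving out 1 clone or replicate gave 289 to 2640 and 1 to 1512, with the lowest counts without WT replicate 1. For the ATRi effect the 206 genes of the Ccnc multiplex became 451 with the block, 640 with DESeq2, 845 with the lowered filter and 41 with WT replicate 2 under ATRi included. The 16 of the Cdk8 multiplex became 2107, 354, 41 and 13. With the knockout clones alone they were 15 and 0, and 109 and 1193 with the block. Leaving out 1 clone or replicate gave 21 to 250 and 0 to 29. Between the knockouts the 3 genes became 31 with DESeq2, 22 with the lowered filter, 1 with the multiplex as a term and 1 to 5 with 1 clone left out. The interaction had 0 genes, but 20 in the Ccnc multiplex with the lowered filter and 4 in the Cdk8 multiplex with the block.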
